A study of Mus musculus with 6 samples.

Results

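The genes described here encode the core of the microRNA silencing complex: the 4 Argonaute genes, which the deposited tables list under their older symbols Eif2c1, Eif2c2, Eif2c3 and Eif2c4 (now Ago1, Ago2, Ago3 and Ago4), and the 3 Tnrc6 genes, Tnrc6a, Tnrc6b and Tnrc6c. They were chosen by name, and all 7 were found among the 23227 genes of the exonic tables and the 23231 genes of the intronic tables. Ribosome-depleted total RNA had been sequenced from monoclonal immortalized mouse mesenchymal stem cells, which some labels call fibroblasts. The Dicer WT cells are Dicer f/f, that is, both copies of the gene are floxed and intact, and the Dicer KO cells are Dicer -/-. The other 4 groups are the Dicer WT cells after transfection with vector alone, or with a vector for the transcription factor Pbx3, Sox9 or Tead4. The lines are clones, so the Dicer genotype and the clone cannot be told apart. Each group has 2 libraries, whose reads were recovered from the deposited group means. Nothing states that these are separate cultures, so the spread that p-values are set against may be technical.

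Argonaute proteins hold a microRNA and use its seed, the bases near its 5′ end, to find target mRNAs, usually in their 3′ UTR. Proteins of the TNRC6 (GW182) family bind the Argonaute and recruit the deadenylases that shorten the target's poly(A) tail, after which the mRNA is decapped and degraded. Dicer cuts most microRNAs from their hairpin precursors, so a cell without it has Argonautes but few microRNAs to load. Argonaute 2, the product of Eif2c2, is the family member best known for cutting a fully matched target. Exonic reads come mostly from spliced mRNA and intronic reads mostly from RNA that has not been spliced yet.

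The Argonaute and Tnrc6 mRNAs are themselves possible microRNA targets, and the seed matches in their 3′ UTRs are shown because they are the feature through which a microRNA would bind them. MicroRNA levels were not analysed here. The following mature microRNAs, from RefSeq (build GRCm38.p6), stand for the families discussed, with the seed (bases 2 to 8) in capitals.
mmu-miR-26a-5p: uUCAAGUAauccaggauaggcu
mmu-miR-23a-3p: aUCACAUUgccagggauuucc
mmu-miR-30a-5p: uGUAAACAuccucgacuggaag
mmu-miR-148a-3p: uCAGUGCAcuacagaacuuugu
mmu-let-7a-5p: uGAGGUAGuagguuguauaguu

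The longest GENCODE vM21 transcript of each gene (GRCm38) was searched on its own strand for 7-base matches to the seed of 23 microRNA families, and for 8-base matches in which an A follows. The 8-base motifs are TACTTGAA for miR-26, AATGTGAA for miR-23, TGTTTACA for miR-30, TGCACTGA for miR-148 and CTACCTCA for let-7. The remaining 18 motifs, given without the final A, are TGCTGCT (miR-15/16), GCACTTT (miR-17), TTTGCAC (miR-19), ATAAGCT (miR-21), GGCAGCT (miR-22), CTGAGCC (miR-24), ACTGTGA (miR-27), TGGTGCT (miR-29), TCTTGCC (miR-31), CACTGCC (miR-34), GTGCAAT (miR-25/92), ATGCTGC (miR-103), CTCAGGG (miR-125), TTGCACT (miR-130), TGAATGT (miR-181), ACTACTG (miR-199a-3p), CCTGCTG (miR-214) and ATGTAGC (miR-221). The 7-base motifs of miR-130 and miR-148 overlap each other and can be counted at one place, but their 8-base motifs cannot. Some other 7-base motifs overlap too, such as those of miR-15/16 and miR-103. A match is a description of the sequence and does not show binding.

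All 3 Tnrc6 3′ UTRs hold a miR-26 match followed closely by a miR-23 match. They are shown with the 20 bases before each match, the 8-base match in capitals, and the position of its first base counted from the start of the 3′ UTR.
Tnrc6a miR-26 match at base 150: ccaaaacatatcagtttgaaTACTTGAA
Tnrc6b miR-26 match at base 238: agaacatatcactcttgaaaTACTTGAA
Tnrc6c miR-26 match at base 582: agacatatcaaacatgcaaaTACTTGAA
Tnrc6a miR-23 match at base 177: atcatgcaggccaatattatAATGTGAA
Tnrc6b miR-23 match at base 270: gaacgccaacctagaaagacAATGTGAA
Tnrc6c miR-23 match at base 609: acccagcaggccaataccgaAATGTGAA

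The miR-26 and miR-23 matches start 27 bases apart in Tnrc6a, 32 in Tnrc6b and 27 in Tnrc6c. Of 20937 mouse 3′ UTRs, 6 (0.0287%) hold these 8-base matches in this order with starts at most 50 bases apart. The other 3 are those of Acvr1c, Grtp1 and Zic5. This arrangement was noticed in the sequences before it was counted. Singly, the miR-26 match occurs in 4.16% of all 3′ UTRs and the miR-23 match in 6.24%.

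The miR-30 match occurs in 6.72% of all 3′ UTRs and in 6 of the 7 genes here: 2 times in Tnrc6a, 3 times in Tnrc6b, and once each in Tnrc6c, Eif2c1, Eif2c3 and Eif2c4. Eif2c2 has 3 matches to 7 bases of miR-30 but none to 8. The miR-148 match occurs in 3.52% of all 3′ UTRs, 2 times in Eif2c2, and once each in Eif2c1, Eif2c3, Eif2c4, Tnrc6a and Tnrc6c. The let-7 match occurs in 2.98% of all 3′ UTRs, and among these genes in Eif2c2 and Eif2c3 only. The following are the let-7 and the first miR-148 match of Eif2c2 and the first miR-30 match of Tnrc6a and Eif2c1.
Eif2c2 let-7 match at base 8919: ctttcttttacaatgtggatCTACCTCA
Eif2c2 miR-148 match at base 1248: ggtgggtttcataggatctaTGCACTGA
Tnrc6a miR-30 match at base 722: gttcccacggtgaaccttctTGTTTACA
Eif2c1 miR-30 match at base 1569: ttgctgctcccatttgcttcTGTTTACA

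Length sets much of the number of matches. The 3′ UTRs are 2345 bases in Tnrc6a, 2588 in Tnrc6c, 3682 in Eif2c4, 4491 in Eif2c1, 11064 in Eif2c2, 11609 in Tnrc6b and 12742 in Eif2c3, against a median of 935 over all genes. Per kb of 3′ UTR, the 23 families had 2.13 matches of 8 bases in Tnrc6a, 1.55 in Tnrc6c, 1.34 in Eif2c1 and 1.12 in Tnrc6b. Eif2c4 and Eif2c2 each had 0.81 and Eif2c3 had 0.78, and over all 3′ UTRs the density was 0.68. Among UTRs of 0.8 to 1.2 times the length of Tnrc6a's, 11.7% hold the miR-30 match, 9.8% that of miR-23 and 6.46% that of miR-26. For the long UTR of Tnrc6b the same shares are 41.9%, 40.3% and 37.1%, so a single match there is common for its length. The miR-30 share is 41.9% for the length of Eif2c3, 19.45% for Eif2c1, 17.2% for Eif2c4 and 12.3% for Tnrc6c. The let-7 share is 19.2% for the length of Eif2c2 and 20.9% for Eif2c3, and the miR-148 share is 20.55% for Eif2c2. These are well above the shares over all 3′ UTRs.

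**Figure D1:**
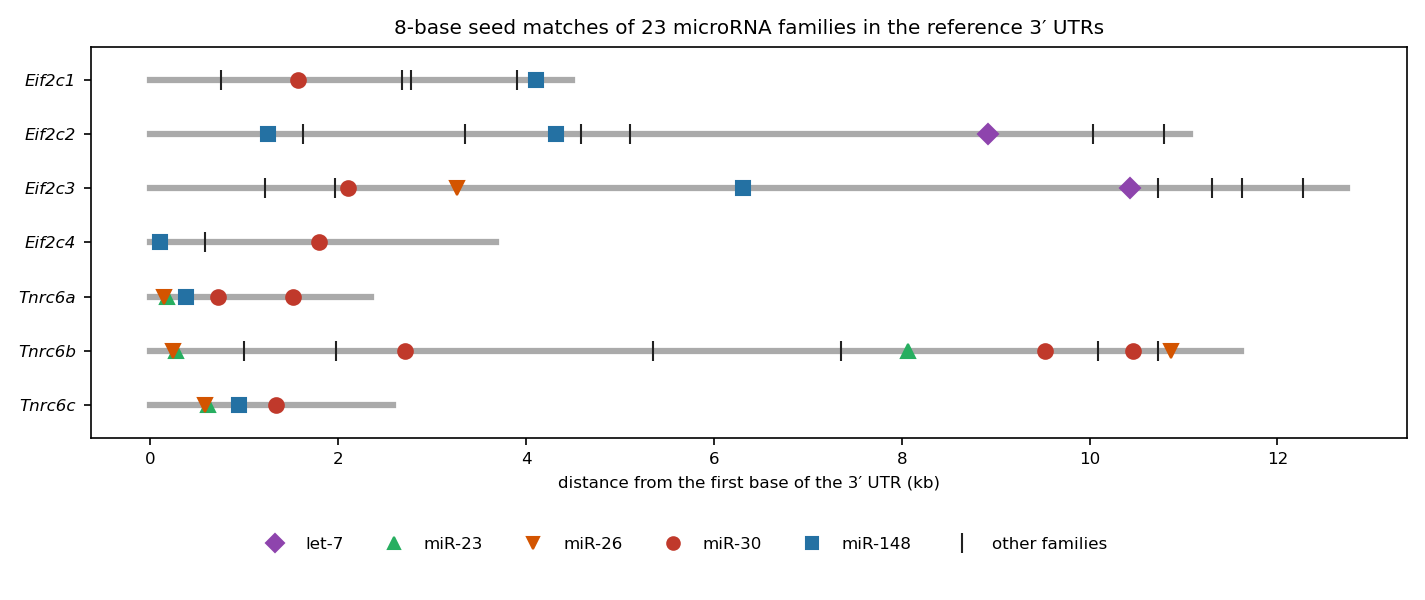
Positions of 8-base seed matches of 23 microRNA families along the reference 3′ UTR of each gene, with the distance from the first base of the 3′ UTR in kb on the x axis. Coloured symbols mark 5 families and black ticks the others. A miR-26 and a miR-23 symbol lie side by side in all 3 Tnrc6 UTRs, 27 to 32 bases apart. The miR-26 match of this pair starts at base 150 in Tnrc6a, 238 in Tnrc6b and 582 in Tnrc6c.

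Levels are given as exonic RPM (reads scaled to the total exonic reads of the library) divided by the length in kb of the reference transcript, so that genes can be compared. Tnrc6a stood at 12.2 and 12.6 in the 2 Dicer WT libraries and Tnrc6b at 9.56 and 14.2, which overlap. Tnrc6c followed at 6.58 and 8.31, Eif2c3 at 6.28 and 6.53, Eif2c1 at 5.02 and 7.02, and Eif2c2 at 5.02 and 5.54. Eif2c1 overlapped with each of Tnrc6c, Eif2c3 and Eif2c2. Eif2c4 was the lowest, at 0.61 and 1.85. In the Dicer KO libraries the order was Tnrc6a (32.2 and 34.9), Tnrc6b (20.1 and 24.1), Eif2c2 (11 and 13.6), Tnrc6c (7.58 and 10.2), Eif2c3 (5.77 and 5.95), Eif2c1 (3.58 and 4.41) and Eif2c4 (0.36 and 0.46). No neighbours in the Dicer KO order overlapped. Eif2c2 thus stood sixth among these genes in Dicer WT by its mean per kb and after only Tnrc6a and Tnrc6b in Dicer KO. Its place in Dicer WT depends on the reference transcript lengths. In RPM not divided by length, its Dicer WT mean of 72.8 was above those of Tnrc6c (65.8) and Eif2c1 (43.5). In Dicer KO it came after only Tnrc6a and Tnrc6b in RPM too.

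**Figure D2:**
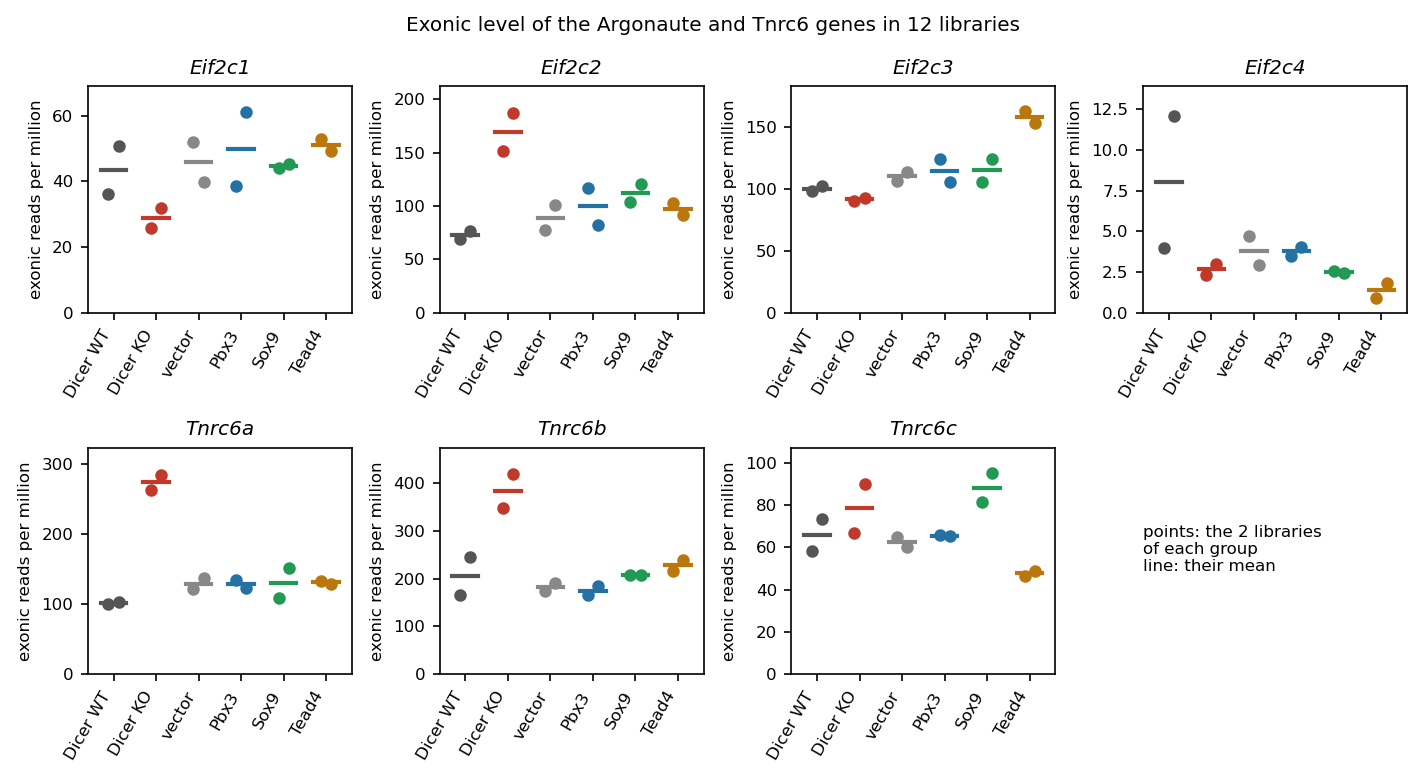
Exonic RPM (y axis, from 0, a scale of its own in each panel) for the 7 genes in the 12 libraries, with a point for each library and a line for the mean of each group. The Dicer KO points of Eif2c2, Tnrc6a and Tnrc6b lie above those of the other 5 groups, at 151 to 187, 263 to 286 and 348 to 418 RPM.

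The first comparison asks which of these genes differed in cells without Dicer. Values are exonic normalised counts (reads divided by the size factor of the library), and a gene is said to have risen or fallen where limma gave an adjusted p under 0.05 over all genes tested. Eif2c2, Tnrc6a and Tnrc6b rose, none fell, and all 7 genes reached the minimum mean of 50 normalised counts. Over all 10706 genes tested, 16.6% passed and 9.28% passed with a higher value in Dicer KO. At an unadjusted p under 0.05 there were 4 of the 7, beside 34.2% of all genes. In bulk RNA, fewer cells of a type and less RNA per cell cannot be told apart.

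Among the Argonautes, Eif2c2 gave 1515 and 1576 normalised counts in Dicer WT and 3259 and 4004 in Dicer KO. Both Dicer KO libraries were above both Dicer WT libraries. The means differed 2.35-fold, and Eif2c2 rose by 1.22 ± 0.15 on the log2 scale (SE, n = 2 libraries per group, limma adjusted p = 0.00996).

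Eif2c1, a sister Argonaute that silences mainly without cutting, gave 795 and 1046 normalised counts in Dicer WT and 557 and 682 in Dicer KO. The groups did not overlap, with Dicer KO lower, but the log2 difference of -0.56 ± 0.20 did not pass (limma adjusted p = 0.121). Eif2c3 gave 2143 and 2101 in Dicer WT against 1937 and 1984 in Dicer KO, a log2 difference of -0.11 ± 0.12 (limma adjusted p = 0.55). Eif2c4, the least abundant member, gave 86.7 and 250 in Dicer WT and 50.4 and 64.0 in Dicer KO. Its Dicer WT libraries differed from each other far more than its Dicer KO libraries did, and the log2 difference of -1.36 ± 0.54 did not pass (limma adjusted p = 0.147). Without Dicer WT library 1, the difference for Eif2c4 was -2.12. Without Dicer WT library 2 it was -0.60, so its size depends on which library is kept. With a term for a library order read from the data, Eif2c1 and Eif2c4 passed as lower in Dicer KO (limma adjusted p = 0.00481 and 0.00928), as 47.2% of all genes passed in that fit. The order was chosen from the same values that were tested, so p-values with this term may be too small, here and below. Eif2c1, Eif2c3 and Eif2c4 lie on mouse chromosome 4, on the minus strand, and Eif2c2 lies on chromosome 15.

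Among the Tnrc6 genes, Tnrc6a gave 2193 and 2131 normalised counts in Dicer WT and 5670 and 6107 in Dicer KO. The means differed 2.72-fold, and Tnrc6a rose by 1.44 ± 0.12 (limma adjusted p = 0.00501), the largest change of the 3 genes that rose. Tnrc6b gave 3628 and 5075 in Dicer WT and 7501 and 8944 in Dicer KO, a 1.89-fold difference of the means, and rose by 0.93 ± 0.21 (limma adjusted p = 0.039). The call for Tnrc6b was lost without either Dicer KO library, at 1.06 without library 1 and 0.81 without library 2 (limma adjusted p = 0.1 and 0.171), fits in which 5% and 5.58% of all genes passed. Tnrc6c gave 1274 and 1516 in Dicer WT and 1444 and 1925 in Dicer KO, which overlap, with a log2 difference of 0.26 ± 0.19 (limma adjusted p = 0.389). Tnrc6a lies on chromosome 7, Tnrc6b on chromosome 15 and Tnrc6c on chromosome 11.

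The libraries of Dicer WT and Dicer KO did not overlap for 6 of the 7 genes, 3 higher and 3 lower in Dicer KO. Over all genes tested this held for 63.3%, so a lack of overlap is common in this comparison. The median exonic log2 difference over the 7 genes was 0.26, beside 0.01 over all genes. In the authors' deposited table, the log2 fold changes were 1.23 for Eif2c2, 1.45 for Tnrc6a and 0.92 for Tnrc6b, with adjusted p-values of 3.19e-05, 3.67e-07 and 0.00256. The authors' deposited table gave adjusted p-values of 0.185 for Eif2c1, 0.527 for Eif2c4, 0.688 for Tnrc6c and 0.98 for Eif2c3. The same 3 genes thus passed at 0.05 there, where 11% of all genes with an adjusted p did.

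The makeup of the Argonaute mRNA pool differed between Dicer WT and Dicer KO, as described by levels per kb of transcript and without a test. The 4 genes summed to 16.9 and 20.9 RPM per kb in Dicer WT and to 20.7 and 24.4 in Dicer KO, which overlap. This overlap depends on the reference transcript lengths. In RPM not divided by length, the sum was higher in both Dicer KO libraries than in both Dicer WT libraries. Eif2c2 made up 29.6% and 26.5% of the sum per kb in Dicer WT and 53.0% and 55.6% in Dicer KO. In the 8 libraries with vector, Pbx3, Sox9 or Tead4 its share was 27.4% to 38.1%. The share of Eif2c1 was 29.7% and 33.5% in Dicer WT and 17.3% and 18.1% in Dicer KO.

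The Tnrc6 pool per kb was larger in Dicer KO. Its sum was 28.4 and 35.1 RPM per kb in Dicer WT and 59.8 and 69.2 in Dicer KO. Tnrc6a made up 43.1% and 35.9% in Dicer WT and 53.8% and 50.4% in Dicer KO, and Tnrc6c 23.2% and 23.7% against 12.7% and 14.7%. The sum of the Tnrc6 genes was between 32.2 and 41.2 in the 8 libraries of the transfected groups, below both Dicer KO libraries.

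**Figure D3:**
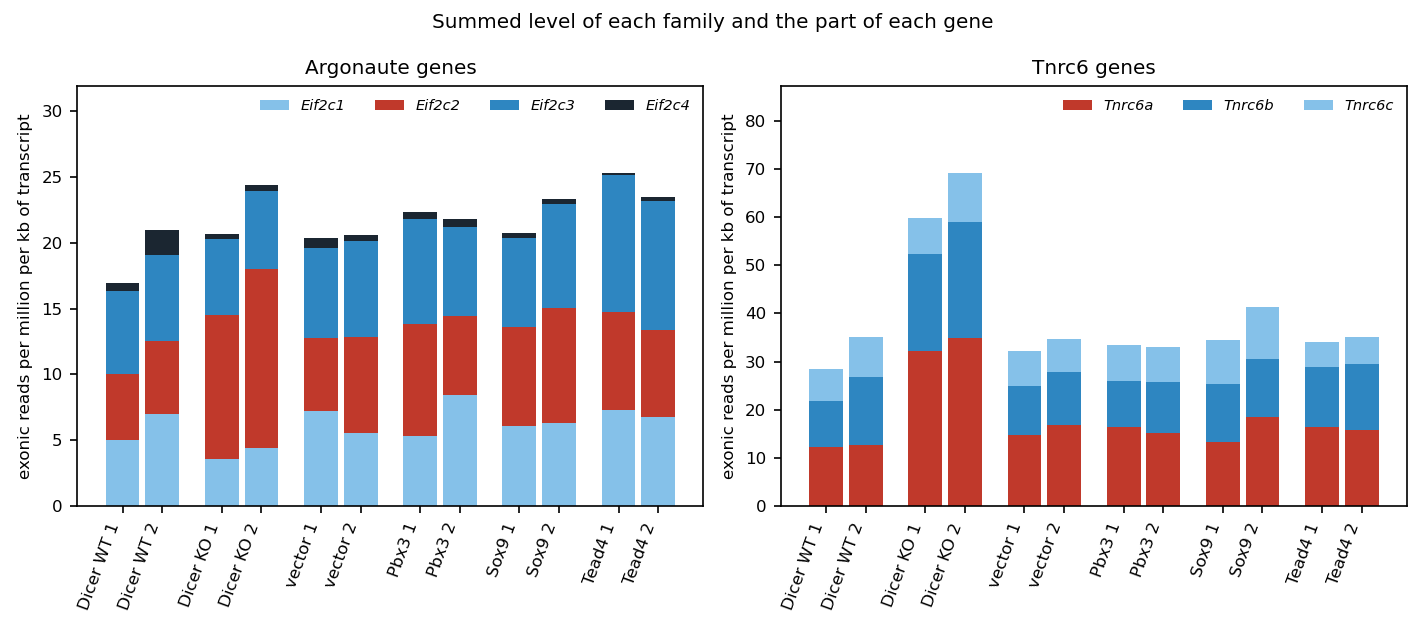
Stacked bars of the exonic level per kb of transcript (RPM per kb, from 0) for the Argonaute genes (left) and the Tnrc6 genes (right) in each of the 12 libraries, numbered 1 and 2 within a group. The Argonaute bars of Dicer KO (20.7 and 24.4) overlap those of Dicer WT, with a wider Eif2c2 segment, while the Tnrc6 bars of Dicer KO (59.8 and 69.2) are above all others.

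Intronic reads were set beside exonic reads to ask whether the unspliced RNA of the same genes differed too. Of the 7 genes, 4 reached the minimum in intronic reads, and none of them passed (limma, 6.51% of 10215 genes passed), with 1 of the 4 at an unadjusted p under 0.05, as were 25% of all genes. Eif2c2 gave 1271 and 1099 intronic normalised counts in Dicer WT and 1420 and 1327 in Dicer KO, a log2 difference of 0.22 ± 0.14 (limma adjusted p = 0.391). Tnrc6a gave 2306 and 2288 in Dicer WT and 3244 and 3390 in Dicer KO, a difference of 0.53 ± 0.12 (limma adjusted p = 0.0748). Both genes were higher in each Dicer KO library than in either Dicer WT library. This is a description only, since the share of all genes without overlap in intronic reads is not given here. In exonic reads of the same comparison it was 63.3%. Tnrc6b gave 2500 and 3447 against 4079 and 3394, and Tnrc6c 1946 and 2025 against 2042 and 1683. These last 2 overlapped between groups, with log2 differences of 0.34 ± 0.21 and -0.10 ± 0.15 (limma adjusted p = 0.361 and 0.713). With the library order term, intronic Tnrc6a and Tnrc6b passed (limma adjusted p = 0.00846 and 0.0447), as did 30.5% of all genes.

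The exonic change exceeded the intronic change for each of these 4 genes, by 1.01 ± 0.19 for Eif2c2, 0.91 ± 0.14 for Tnrc6a, 0.59 ± 0.32 for Tnrc6b and 0.36 ± 0.25 for Tnrc6c on the log2 scale. The value of Tnrc6b was 0.35 without exonic Dicer WT library 1 and was 0.83 without library 2, and that of Tnrc6c was 0.57 without exonic Dicer KO library 1 and 0.15 without library 2. In a limma fit that leaves exonic and intronic libraries unpaired, none of them passed (adjusted p = 0.354, 0.187, 0.9999 and 0.9999), and 1 of 9402 genes (0.0106%) did. Eif2c2 and Tnrc6a had unadjusted p-values of 0.00136 and 0.000331 in that fit, where 4.79% of all genes were under 0.05. When each exonic library was put together with the intronic library that deviates the same way, a pairing read from the data and not from the labels, Eif2c2, Tnrc6a and Tnrc6b passed (limma adjusted p = 0.00411, 0.00216 and 0.00856) and Tnrc6c did not (0.102). In that fit 4.96% of all genes passed with a larger exonic change. Since the pairing was chosen from the same values that were tested, its p-values may be too small. With the library order term in place of the pairing, none of the 4 passed (limma adjusted p = 0.126, 0.1015, 0.206 and 0.3645).

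**Figure D4:**
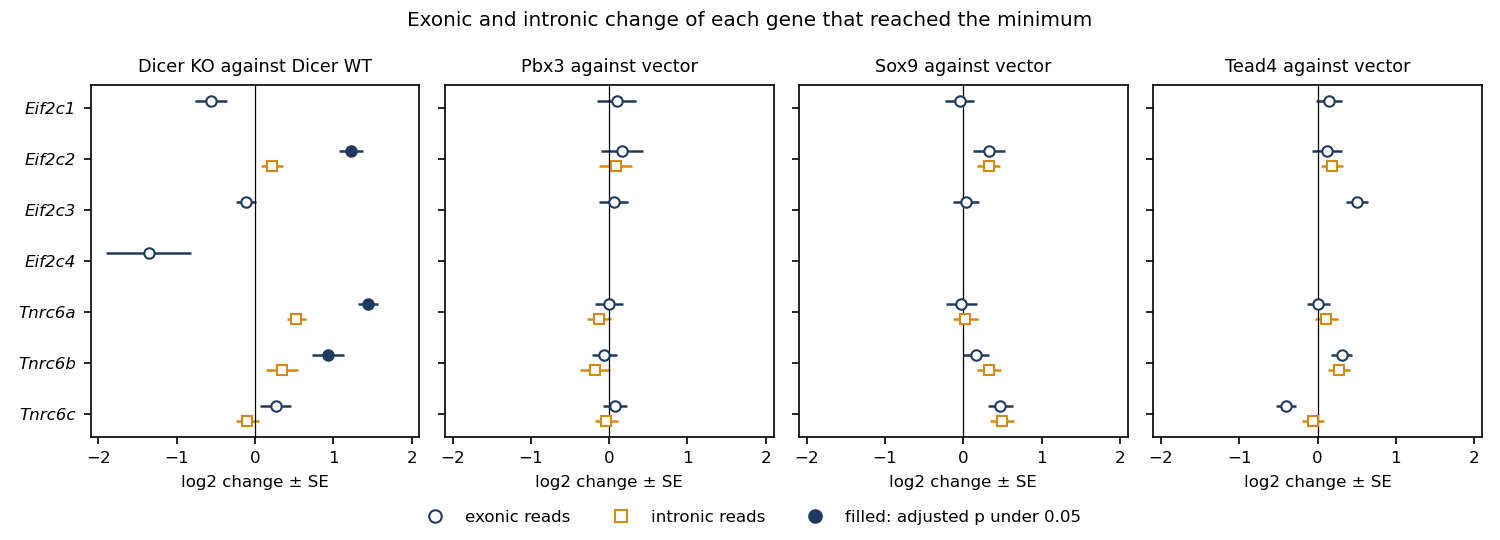
Log2 change with its standard error (x axis) in exonic reads (circles) and intronic reads (squares) for each gene that reached the minimum, in the 4 comparisons. Filled symbols mark an adjusted p under 0.05. Exonic symbols lie right of the intronic ones for Eif2c2, Tnrc6a, Tnrc6b and Tnrc6c in Dicer KO, where the filled points are those of Eif2c2 (1.22), Tnrc6a (1.44) and Tnrc6b (0.93).

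Eif2c1 and Eif2c3 had very few intronic reads in every group. Over both libraries, intronic reads made up 2.41% of the 1826 reads of Eif2c1 in Dicer WT and 1.52% of the 4223 reads of Eif2c3, and in the 6 groups they made up 1.90% to 3.58% and 1.02% to 1.52%. Both reference transcripts have long introns, 26.3 kb in Eif2c1 and 81.2 kb in Eif2c3. Among 8424 genes with at least 1000 reads in Dicer WT, the median share was 29.9%, and 2.98% of genes were at or below Eif2c1 and 2.47% at or below Eif2c3. Eif2c2, with 75.3 kb of introns, stood at 44.0% in Dicer WT and 27.1% in Dicer KO. Tnrc6a stood at 52.0% and 35.6%, Tnrc6b at 41.2% and 30.9%, and Tnrc6c at 59.4% and 52.2%. How introns were assigned is not given in the sources used here, so whether Eif2c1 and Eif2c3 differ from Eif2c2 in their unspliced RNA or in their annotation was not tested.

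Pbx3, Sox9 and Tead4 were each compared with the same 2 vector libraries, so these 3 comparisons share their controls, whose normalised counts differ between comparisons because each table was scaled on its own. In each, 6 of the 7 genes reached the minimum in exonic reads (Eif2c4 did not) and 4 in intronic reads, and none rose or fell. With 2 libraries per group, a value that did not pass is not shown to be unchanged. With limma, 0.0102% of 9826 genes passed in exonic reads for Pbx3, 0.547% of 9698 for Sox9 and 0.143% of 9796 for Tead4. In intronic reads these were 0%, 1.99% and 1.61%. At an unadjusted p under 0.05 there were none of these genes for Pbx3 (2.37% of all genes in exonic and 2.9% in intronic reads). There was 1 in exonic and 1 in intronic reads for Sox9 (13% and 17.2% of all genes), and there were 2 in exonic reads and none in intronic reads for Tead4 (15.9% and 15.5%). The exonic minus intronic change passed for none of the 4 genes that could be tested in these comparisons (limma, none with an unadjusted p under 0.05), and for 0.0125% of all genes with Pbx3, 0% with Sox9 and 0.0125% with Tead4.

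With Pbx3, the exonic log2 differences of the 6 genes ran from -0.06 for Tnrc6b to 0.17 for Eif2c2, and each standard error was larger than its difference. Eif2c2 gave 742 and 1018 normalised counts with vector and 1198 and 795 with Pbx3, which overlap. Tnrc6a gave 1168 and 1399 with vector and 1371 and 1189 with Pbx3, a log2 difference of -0.00225 ± 0.18 (limma adjusted p = 0.9998).

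With Sox9, the gene farthest from its control among those that reached the minimum was Tnrc6c, in both kinds of reads. It gave 519 and 512 exonic normalised counts with vector and 676 and 759 with Sox9, a log2 difference of 0.47 ± 0.16 (limma adjusted p = 0.304, not passed). The intronic counts were 668 and 731 with vector and 1009 and 959 with Sox9, a difference of 0.49 ± 0.15 (limma adjusted p = 0.147). With the library order term both passed (limma adjusted p = 0.00888 and 0.00297), as did 18.5% and 18.6% of all genes. The groups did not overlap in either kind of read, which held for 45.3% of all genes in exonic and 48.9% in intronic reads. The exonic and intronic differences of Tnrc6c were -0.02 ± 0.18 apart. Eif2c2 differed by 0.33 ± 0.20 in exonic and 0.32 ± 0.15 in intronic reads (limma adjusted p = 0.523 and 0.303). Tnrc6b differed by 0.17 ± 0.17 and 0.33 ± 0.15 (limma adjusted p = 0.703 and 0.309).

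With Tead4, Eif2c3 and Tnrc6c were farthest from their controls in exonic reads among the genes that reached the minimum, in opposite directions. Eif2c3 gave 1012 and 1135 exonic normalised counts with vector and 1587 and 1456 with Tead4, a log2 difference of 0.50 ± 0.13 that did not pass (limma adjusted p = 0.187). It passed when either vector library was left out, at 0.42 without library 1 and 0.59 without library 2 (limma adjusted p = 0.0256 and 0.00296), fits in which 24.2% and 11.6% of all genes passed. It did not pass without either Tead4 library (0.44 and 0.57, limma adjusted p = 0.999 and 0.679). With the library order term it passed (limma adjusted p = 0.0337), as did 8.75% of all genes. Tnrc6c gave 616 and 602 with vector and 456 and 466 with Tead4, a difference of -0.40 ± 0.13 (limma adjusted p = 0.24), while its intronic reads differed by -0.059 ± 0.14. Exonic groups did not overlap for 3 of the 6 genes that reached the minimum, beside 49.2% of all genes. Eif2c4, below the minimum, gave 44.9 and 29.1 with vector and 8.98 and 17.6 with Tead4, from 77 and 26 reads over both libraries. The authors' deposited table gives it a log2 fold change of -1.48 with an adjusted p of 0.273. Tnrc6c made up 15.5% and 15.7% of the Tnrc6 sum per kb with Tead4 and 22.8% and 19.6% with vector.

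Tnrc6c thus gave 88.3 exonic RPM with Sox9 (mean of 81.5 and 95.1), 78.5 in Dicer KO (67.0 and 90.0), 65.8 in Dicer WT (58.2 and 73.5), 65.6 with Pbx3 (65.9 and 65.3), 62.6 with vector (64.8 and 60.4) and 47.8 with Tead4 (46.7 and 48.9). Sox9 and Dicer KO overlapped, as did Dicer KO and Dicer WT, Dicer WT and Pbx3, and Dicer WT and vector. Tead4 was below all other libraries. Across groups of separately normalised tables these levels are a description, with no test.

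Across the 12 libraries, exonic levels of Eif2c2 and Tnrc6a varied together, with a Pearson r of 0.91 on log2(RPM + 1). Tnrc6a and Tnrc6b had an r of 0.83, Eif2c2 and Tnrc6b 0.75, and Eif2c1 and Tnrc6a -0.69. These values describe 12 libraries of which 2 are Dicer KO and 2 are the controls of all 3 factors, and they are not independent of the differences above. Of 10706 genes, those most like Eif2c2 were Patl1 (0.96), which encodes a decapping activator, Mdm4 (0.95), which encodes a p53 inhibitor, and Traf6 (0.95), which encodes an adaptor of immune receptor signalling. Those most like Tnrc6a were Dennd1b, Plagl2 and Gxylt1, at 0.97, 0.96 and 0.96.

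The other genes of microRNA silencing were taken as 65 genes in 6 lists, of which 64 were in the tables and 58 were tested in exonic reads of Dicer KO. Of the 58, 7 (12.1%) rose and none fell. Over all genes, 9.28% passed with a higher value in Dicer KO and 16.6% passed in either direction. Their median log2 difference was 0.15, beside 0.01 over all genes. In intronic reads 2 of 58 rose and none fell (6.51% of all genes passed), and in each comparison with vector none of them passed in either kind of read. At an unadjusted p under 0.05 in limma there were 14 of 58 in exonic and 10 of 58 in intronic reads for Dicer KO (34.2% and 25% of all genes). With vector as control, 58 were tested in exonic and 57 in intronic reads. There were 0 and 0 for Pbx3 (2.37% and 2.9% of all genes) and 5 and 7 for Sox9 (13% and 17.2%). For Tead4 there were 3 and 4 (15.9% and 15.5%).

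By role, 1 of 8 microRNA processing genes rose: Tarbp2, which encodes a partner of Dicer that binds double-stranded RNA, gave 354 and 399 normalised counts in Dicer WT and 704 and 695 in Dicer KO (0.89 ± 0.16, limma adjusted p = 0.0242). Of 10 genes of Argonaute loading and turnover, Ankrd52, a phosphatase subunit that acts on phosphorylated Argonaute, rose by 1.09 ± 0.16. Of 17 deadenylation genes, among them those of the complexes that TNRC6 proteins recruit, 1 rose: Cnot11, listed as 2310035C23Rik, by 0.68 ± 0.14. Their median was -0.02. Of 12 decapping and decay genes, Dcp2, the decapping enzyme, rose by 1.25 ± 0.14 and Patl1 by 0.77 ± 0.15. Of 11 silencing cofactors, Mov10, a helicase that binds Argonautes, rose by 2.32 ± 0.32 and Fxr1 by 0.64 ± 0.13. Mov10 gave 364 and 641 normalised counts in Dicer WT and 2041 and 2848 in Dicer KO, and it also rose in intronic reads, by 1.35 ± 0.25 (limma adjusted p = 0.0482), as did Dcp2, by 0.77 ± 0.15 (0.049). None of the 3 PIWI Argonaute genes, which act in the germline, reached the minimum.

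**Figure D5:**
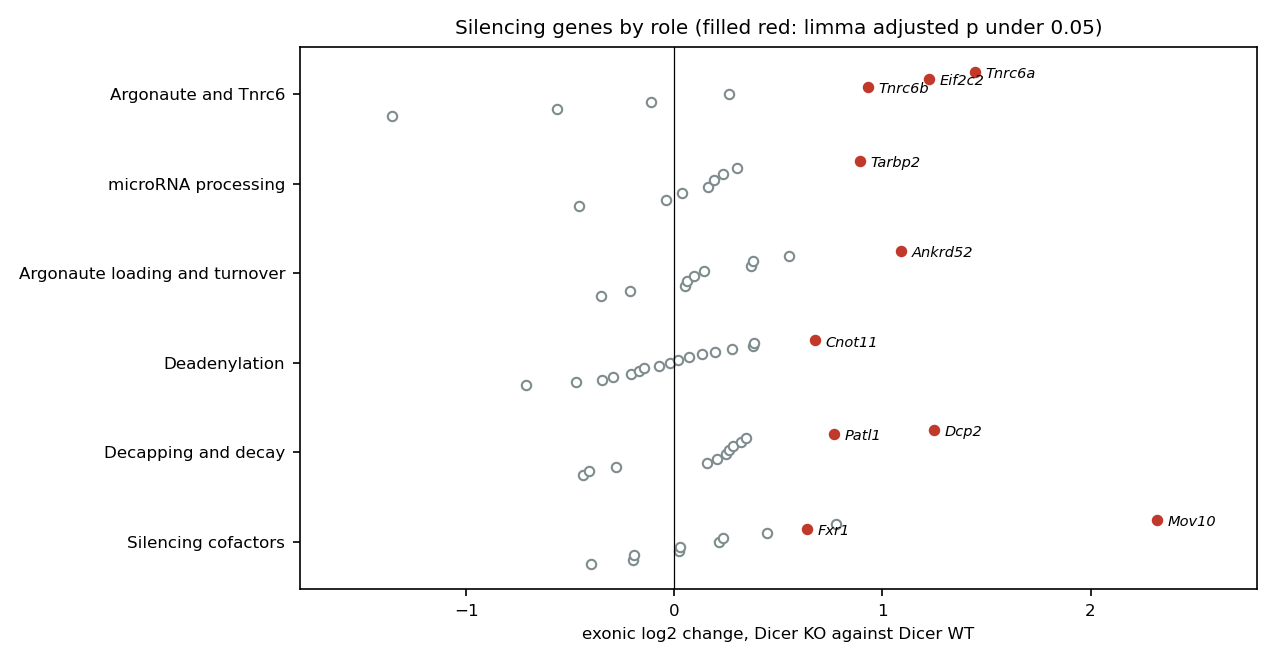
Exonic log2 change in Dicer KO against Dicer WT (x axis) for the 7 Argonaute and Tnrc6 genes and for 58 other silencing genes by role, with 1 point per gene. Red points passed an adjusted p of 0.05: 3 of the 7 and 7 of the 58, the highest of them Mov10 at 2.32, and no red point lies below 0.

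As checks on the samples, Pbx3 and Tead4 rose in the cells transfected with them, by 7.04 ± 0.21 and 7.18 ± 0.18, and Sox9 differed by 1.29 ± 0.39, which did not pass (limma adjusted p = 0.272). Dicer1 gave 1407 and 1343 normalised counts in Dicer WT and 935 and 1067 in Dicer KO (-0.46 ± 0.14, limma adjusted p = 0.0859). Counts over the whole gene do not check the deletion of some of its exons. Summed over 10 stromal markers, levels were 4022 to 9322 RPM in the 12 libraries, with Thy1 at 0 reads in all. The sums were 1.5 to 2.97 for 8 blood markers, at most 0.64 for 6 epithelial and 6 endothelial markers, and 1.40 to 6.62 for 6 neural markers. Most of the blood sum was Cd68, at 1.27 to 2.8 RPM, and most of the neural sum was Tubb3, at 1.28 to 6.43 RPM. Ptprc was at most 0.0919 RPM, Epcam at most 0.115, Pecam1 at most 0.483 and Rbfox3 at 0. Exonic depth was 6130267 to 23501655 reads per library and intronic depth 3156973 to 10205497.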

How the data were processed

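The labels list 1 sample for each of 6 groups. Exonic and intronic reads per gene came in 8 tables, 4 comparisons of each kind. The submitters' processing notes name Bowtie2, the mm9 build and DESeq 1.10.1. The signal columns are counts that the authors divided by size factors and then averaged within each group, per the file headers. The deposited fold change is the ratio of these means, the deposited log2 column is its log2, and the p-value columns are the authors' own. Not given in the sources used here: the annotation, whether counting used strand, and what was done with reads that match paralogs.

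Whole reads of 2 libraries per group were recovered from each mean, with 1 solution for 100% of 23227 exonic and 23231 intronic genes at a tolerance of 1e-09 reads. Library 1 has the larger size factor, so library numbers pair nothing. The 2 libraries differed by more than counting noise in every group (median chi-square per gene 1.47 to 10.7). On log2(normalised count + 1), genes with a mean of at least 50 were compared, 2 libraries against 2, with limma 3.58.1 (R 4.3.3, trended variance), Benjamini-Hochberg adjustment and an adjusted p of 0.05 as threshold. Fold changes are on that log2 scale, which understates low genes. The exonic minus intronic change is an unpaired interaction in limma. The recovery and the fits were tested on simulated data. Of value columns, 0 had no group. Lengths, names and 3′ UTRs are from GENCODE vM21 (GRCm38), so no coordinates are given.

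The members and lists were chosen with earlier results of these data known, and the microRNA families after the tables were seen. Text names all 7 members, up to 3 called genes per list, and the 3 genes most like Eif2c2 and Tnrc6a. Alternatives were other pseudocounts, minimums and scaling, voom, a library order term, and leaving out each library.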

Additional observations from a re-analysis of the deposited data

How the results depend on the processing

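The number of the 7 genes called stayed within 1.5 times its reported value under pseudocounts of 0.5 and 5, minimum means of 10 and 200, scaling to total reads, and limma with voom on whole reads. The labels give no pairing, since they list 1 sample per group and the recovered libraries carry no numbers. Differences between the 2 libraries of a group were given signs read from the data, chosen so that they point the same way. So signed, they correlated at 0.35 to 0.90 over all pairs of groups and kinds of reads, over 5605 genes. Between exonic and intronic reads of 1 group the correlation was 0.70 to 0.90. Positive values follow in part from the choice of signs, so they do not by themselves show a shared order. The signs were used as a library order term instead of a pairing. They come from the same values that were tested, so p-values with this term may be too small. With it, Dicer KO calls were 5 in exonic reads (Eif2c1 and Eif2c4 added, both lower; 47.2% of all genes passed) and 2 in intronic reads (Tnrc6a and Tnrc6b; 30.5%), and calls were 1 for Sox9 in exonic and 1 in intronic reads (Tnrc6c; 18.5% and 18.6%) and 1 for Tead4 in exonic reads (Eif2c3; 8.75%). Putting exonic and intronic libraries together by direction gave 3 calls of the exonic minus intronic change in Dicer KO, where 6.29% of all genes passed. The library order term gave 0 calls of this change in Dicer KO, where 0.0106% of all genes passed. Leaving out 1 library gave 0 to 1 calls for Tead4 in exonic reads, the 1 call in the fits without either vector library, where 24.2% and 11.6% of all genes passed against 0.143% with all libraries. The causes were not tested.

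Scaling to total reads turned the sign of 3 values near 0 with Sox9: intronic Tnrc6a (-0.013), and the exonic minus intronic change of Tnrc6a (0.00469) and Tnrc6c (0.037). Leaving out 1 library turned the sign of no called gene. The values that turned had these ranges. In Dicer KO intronic reads Tnrc6c ran from -0.24 to 0.041. For Pbx3 in exonic reads, Eif2c1 ran from -0.19 to 0.38, Eif2c2 from -0.13 to 0.46, Eif2c3 from -0.10 to 0.22, Tnrc6a from -0.13 to 0.13 and Tnrc6b from -0.17 to 0.047. In intronic reads, Eif2c2 ran from -0.17 to 0.34, Tnrc6b from -0.39 to 0.027 and Tnrc6c from -0.092 to 0.015. For the exonic minus intronic change, Eif2c2 ran from -0.21 to 0.38, Tnrc6a from -0.00397 to 0.26 and Tnrc6b from -0.087 to 0.33. For Sox9 in exonic reads, Eif2c1 ran from -0.20 to 0.10, Eif2c3 from -0.053 to 0.13 and Tnrc6a from -0.23 to 0.18, and intronic Tnrc6a from -0.10 to 0.15. The Sox9 exonic minus intronic change ran from -0.23 to 0.24 for Eif2c2, -0.26 to 0.15 for Tnrc6a and -0.10 to 0.063 for Tnrc6c. For Tead4 in exonic reads, Eif2c1 ran from -0.00978 to 0.30, Eif2c2 from -0.10 to 0.35 and Tnrc6a from -0.12 to 0.14, and intronic Tnrc6a from -0.00234 to 0.22. The Tead4 exonic minus intronic change ran from -0.29 to 0.16 for Eif2c2, -0.23 to 0.026 for Tnrc6a and -0.075 to 0.14 for Tnrc6b.

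The main limits are 2 libraries per group and 1 clone per genotype. A group left with 1 library is assumed to vary like the other group. Eif2c4 and the introns of Eif2c1 and Eif2c3 rest on few reads. How reads that match more than 1 Argonaute were counted is not known here.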
